A study of Mus musculus with 27 samples.

Results

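The 10 genes described here, whose products modify, fold, trim or crosslink collagen, were followed in mouse embryonic fibroblasts (MEFs) of both sexes, with and without the long noncoding RNA locus *Firre*. They were chosen by symbol: the prolyl 4-hydroxylase genes *P4ha1*, *P4ha2* and *P4hb*, the lysyl hydroxylase genes *Plod1*, *Plod2* and *Plod3*, the collagen chaperone gene *Serpinh1*, the crosslinking enzyme genes *Loxl1* and *Loxl2*, and the procollagen protease gene *Bmp1*. All 10 were found among the 37310 genes of the count table, each in 1 row, and all 10 were among the 15387 genes with enough counts to be tested. The table held 12 RNA-seq libraries in 4 groups of 3: female wild type, female *Firre* KO, male wild type and male *Firre* KO. The question the design poses for these genes is whether deletion of *Firre* changed their expression in either sex. In KO cells the locus was removed from the X chromosome in the germ line by recombination between loxP sites, and wild-type cells kept it. The cells were early-passage cultures grown from single mid-gestation embryos after the head, limbs and viscera had been removed, and no treatment was given. The labels do not say how many embryos stand behind the 3 libraries of a group, so p-values measure only the spread between these libraries, which may be technical. For the same reason, sex or genotype cannot be told apart from the particular embryos or cultures in any comparison between groups. Below, a line means all libraries of 1 sex.

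Collagen chains are modified while they enter the endoplasmic reticulum. Prolyl 4-hydroxylase, a tetramer of catalytic alpha subunits and the beta subunit P4HB, makes the hydroxyproline that keeps the triple helix stable at body temperature, and lysyl hydroxylases make the hydroxylysine that later carries sugars and crosslinks. The heat shock protein HSP47, encoded by *Serpinh1*, holds the folded helix until it leaves the endoplasmic reticulum. BMP1 then cuts the C-propeptide from procollagens outside the cell, and enzymes of the lysyl oxidase family oxidise lysines so that fibrils become crosslinked. Fibroblasts are a main source of fibrillar collagen, and type I collagen, whose alpha 1 chain is encoded by *Col1a1*, is their main product.

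The libraries held between 42986516 and 65454660 expected counts, and every male library was deeper than every female library. *Firre* RNA, listed in the table as 6720401G13Rik, had between 90 and 307 counts in the 6 wild-type libraries and 0 in the 6 KO libraries. Replicate 3 of male wild type and replicate 3 of male KO stood apart from the other libraries of their groups. Their counts differed from those of the other 2 libraries by a chi-square of 37.8 to 45.1 per degree of freedom, against 7.55 to 16.6 for all other pairs of replicates. Those 2 libraries were also the shallowest of the male libraries, and member calls and correlations with *Col1a1* that changed without them are given both ways. The 12 fibroblast markers summed to between 17100 and 20200 CPM (counts scaled to library size with TMM factors) in female and between 19800 and 24500 CPM in male libraries, and markers of other cell types also differed between the sexes. The 10 macrophage markers summed to 38.2 to 124 CPM in female and 8.57 to 17 CPM in male libraries, and the 9 epithelial markers to 74.5 to 134 and 40.6 to 53.4 CPM. Neural markers summed to 668 to 890 CPM in female and 497 to 648 CPM in male libraries and endothelial markers to 25.7 to 37.2 and 17.7 to 24.2 CPM, without overlap, whereas the sums of muscle markers (93 to 188 and 82.7 to 146 CPM) and of cartilage and bone markers (184 to 428 and 110 to 531 CPM) overlapped. No marker of these lists was at 0 in all libraries. In bulk RNA, fewer cells of a type and less RNA per cell cannot be told apart.

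The 250 bases before the transcription start of 3 members are shown because these genes set the pattern described further on: *P4ha1* and *Serpinh1* were lower in every female than in every male library, whereas the ranges of *P4hb*, the partner of *P4ha1* in 1 enzyme, overlapped. The sequences are from the RefSeq promoter table of the build GRCm38.p6, which held 6 of the 10 members, *P4ha1*, *P4ha2*, *P4hb*, *Plod1*, *Plod3* and *Serpinh1*. They run 5′ to 3′ toward the start, and capitals mark every match, on either strand, to the motifs searched: the hypoxia response cores ACGTG and GCGTG, the CCAAT box CCAAT, the GC box GGGCGG, the TATA box TATAAA and the endoplasmic reticulum stress element, in which a CCAAT box is followed after 9 bases by CCACG.
P4ha1, chr10:59323046-59323295, plus strand: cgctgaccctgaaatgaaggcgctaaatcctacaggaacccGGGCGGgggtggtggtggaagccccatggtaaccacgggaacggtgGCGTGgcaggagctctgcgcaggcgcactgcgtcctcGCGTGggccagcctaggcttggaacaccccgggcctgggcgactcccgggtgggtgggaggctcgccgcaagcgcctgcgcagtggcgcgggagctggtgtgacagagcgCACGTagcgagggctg
Serpinh1, chr7:99353240-99353489, minus strand: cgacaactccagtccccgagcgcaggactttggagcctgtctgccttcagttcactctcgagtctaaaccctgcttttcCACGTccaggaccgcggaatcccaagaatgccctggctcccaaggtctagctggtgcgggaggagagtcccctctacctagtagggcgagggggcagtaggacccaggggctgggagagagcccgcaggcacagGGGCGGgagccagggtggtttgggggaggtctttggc
P4hb, chr11:120573254-120573503, minus strand: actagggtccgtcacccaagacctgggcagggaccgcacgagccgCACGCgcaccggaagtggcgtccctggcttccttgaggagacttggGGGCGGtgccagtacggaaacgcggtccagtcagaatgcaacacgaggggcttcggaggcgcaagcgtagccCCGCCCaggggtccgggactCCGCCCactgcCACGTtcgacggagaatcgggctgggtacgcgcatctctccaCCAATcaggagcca
The *P4ha1* window held GCGTG at 163 to 159 and at 126 to 122 bases before the start and ACGTG, on the opposite strand, at 16 to 12 bases. The *Serpinh1* window held ACGTG once, on the opposite strand, at 171 to 167 bases. The *P4hb* window held each core once and a CCAAT box at 14 to 10 bases before the start. ACGTG occurred in 5 of the 6 member windows and in 16.6% of all 32851 windows of this length in the table, and GCGTG in 5 of 6 and in 28.2%. At least 1 of these cores was found in 6 of 6 member windows and in 38.6% of all windows. The GC box was found in 5 of 6 and in 32.7%, the CCAAT box in 2 of 6 and in 33.8%, and the TATA box in 1 of 6 and in 12.4%. The stress element, which begins with the CCAAT box, was in 0 of 6 and in 0.113% of all windows. The 6 member windows had 55.6% to 70% G and C, against a median of 52.4% over all windows, and more CpG than 64.4% to 89.3% of them, and the hypoxia cores each hold a CpG. The part of this composition in the counts was not tested, and a match is no evidence of binding.

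Levels of different genes were compared as approximate TPM, a level per length, that is, counts divided by the length of the merged exons and scaled to the same total in each library. Merged exons can be longer than the transcripts present, so orders and ratios between genes depend on the length used. The members spanned a wide range on this scale, from the chaperone gene down to *Plod1*. *Serpinh1* had the highest mean over the 12 libraries, 2095 TPM, which was above *Col1a1* at 1301 TPM, and 99.8% of the genes in the table were lower. *P4hb* followed with 1118 TPM and *Loxl2* with 635.3 TPM. *Loxl1* stood at 167.4 TPM, *P4ha1* at 146.5 TPM and *Plod3* at 111.8 TPM, with *Bmp1* at 104.9 TPM and *Plod2* at 103.8 TPM. The lowest were *P4ha2* with 29.8 TPM and *Plod1* with 25.03 TPM, above 87.5% and 86% of genes. The ranges over libraries of *Serpinh1*, *P4hb*, *Loxl2* and *Loxl1* were apart from each other, as were those of *Plod2* and *P4ha2*. From *Loxl1* down to *Plod2*, the range of each gene over the 12 libraries overlapped that of its neighbour in the order, and so did those of *P4ha2* and *Plod1*. Within libraries, however, *Loxl1* was above *P4ha1* (median ratio 1.08), *P4ha1* above *Plod3* (median ratio 1.31) and *P4ha2* above *Plod1* (median ratio 1.23) in 12 of 12. *Plod3* was above *Bmp1* in 9 of 12 and *Bmp1* above *Plod2* in 8 of 12 libraries, so the order of these last 3 was not the same in every library.

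**Figure D1:**
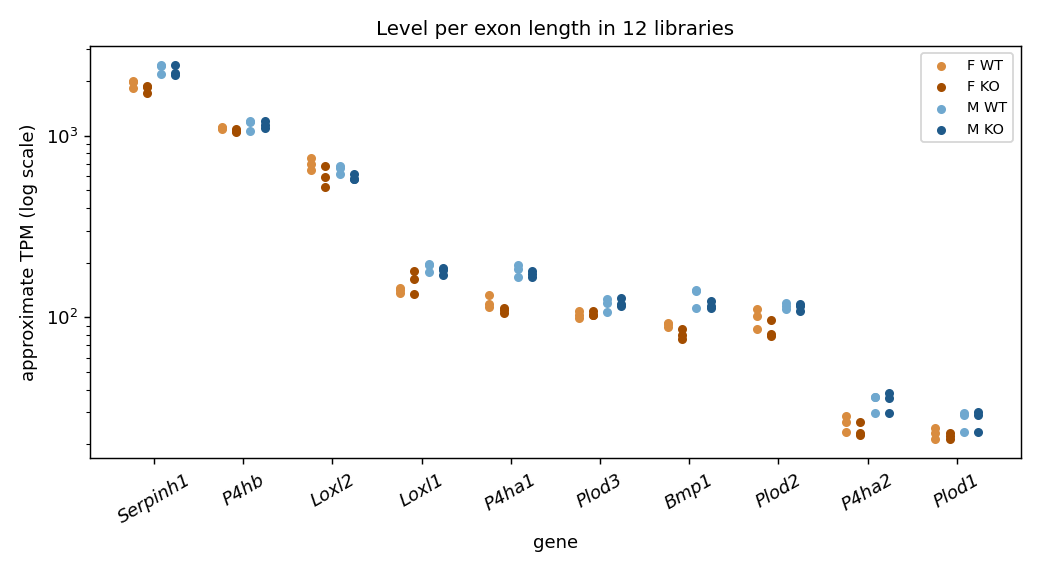
Approximate TPM (log axis) of the 10 genes in order of their mean, 1 point per library and 1 colour per group (F, female; M, male). *Serpinh1* and *P4hb* lie near or above 1000 TPM in every library, and *P4ha2* and *Plod1* lie below 40 TPM.

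Within the enzyme families most members differed in level, with *Plod2* and *Plod3* close to each other. Among the catalytic subunits of prolyl 4-hydroxylase, *P4ha1* exceeded *P4ha2* per length by 4.67 ± 0.193 times in female wild type (SD, n = 3) and by 5.33 ± 0.28 times in male wild type. The beta subunit gene *P4hb*, whose product also works as a protein disulfide isomerase on its own, was at 9.05 ± 0.691 times the TPM of *P4ha1* in female wild type and 9.75 ± 0.252 times in female KO libraries. In male libraries the same ratio was 6.33 ± 0.195 in wild type and 6.68 ± 0.221 in KO. The ratio lay between 8.25 and 10.0 in the female and between 6.14 and 6.85 in the male libraries, so the sexes did not overlap. Among the lysyl hydroxylases, *Plod3*, which also adds sugars to hydroxylysine, and *Plod2*, which hydroxylates lysines of the telopeptides, were at similar levels, with a ratio of 1.04 ± 0.115 in female wild type. *Plod2* was at 4.35 ± 0.447 times the level of *Plod1* in the same group. The merged exons were 4114 bases for *P4ha1*, 6239 for *P4ha2*, 4179 for *Plod2* and 6765 for *Plod1*. The SD of these ratios leaves out any error in length. *Loxl2* exceeded *Loxl1* by 4.95 ± 0.214 times in female wild type, 3.85 ± 0.834 in female KO, 3.46 ± 0.334 in male wild type and 3.27 ± 0.0828 in male KO.

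None of the 10 genes passed the test for a change in *Firre* KO against wild type, in either sex. The fitted log2 fold changes (KO minus wild type) lay between -0.19 and 0.20 in female libraries, with a median of -0.08, and between -0.18 and 0.03 in male libraries, with a median of -0.05. With edgeR's quasi-likelihood test and Benjamini-Hochberg adjustment over all tested genes, the smallest adjusted p of a member was 0.676 in female and 1 in male libraries. Of all tested genes, 0.0130% passed at an adjusted p below 0.05 in female and 0.00650% in male libraries, so the members' count of 0 of 10 is at the background. At an unadjusted p below 0.05 there were 0 members in each sex, against 7.55% and 2.06% of all genes, and DESeq2 also called 0 members. Among 7 tested epithelial markers, the median change in female KO was -1.22, with 6 below 0 and 1 above. Of these, 0 passed and 3 had an unadjusted p below 0.05 by edgeR. Medians of the other marker lists in female KO lay between -0.21 and 0.11. The part of these markers was not tested. The median standard error of the members was 0.09 on the log2 scale in each sex, and the 95% intervals given below bound the changes these libraries leave possible.

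**Figure D2:**
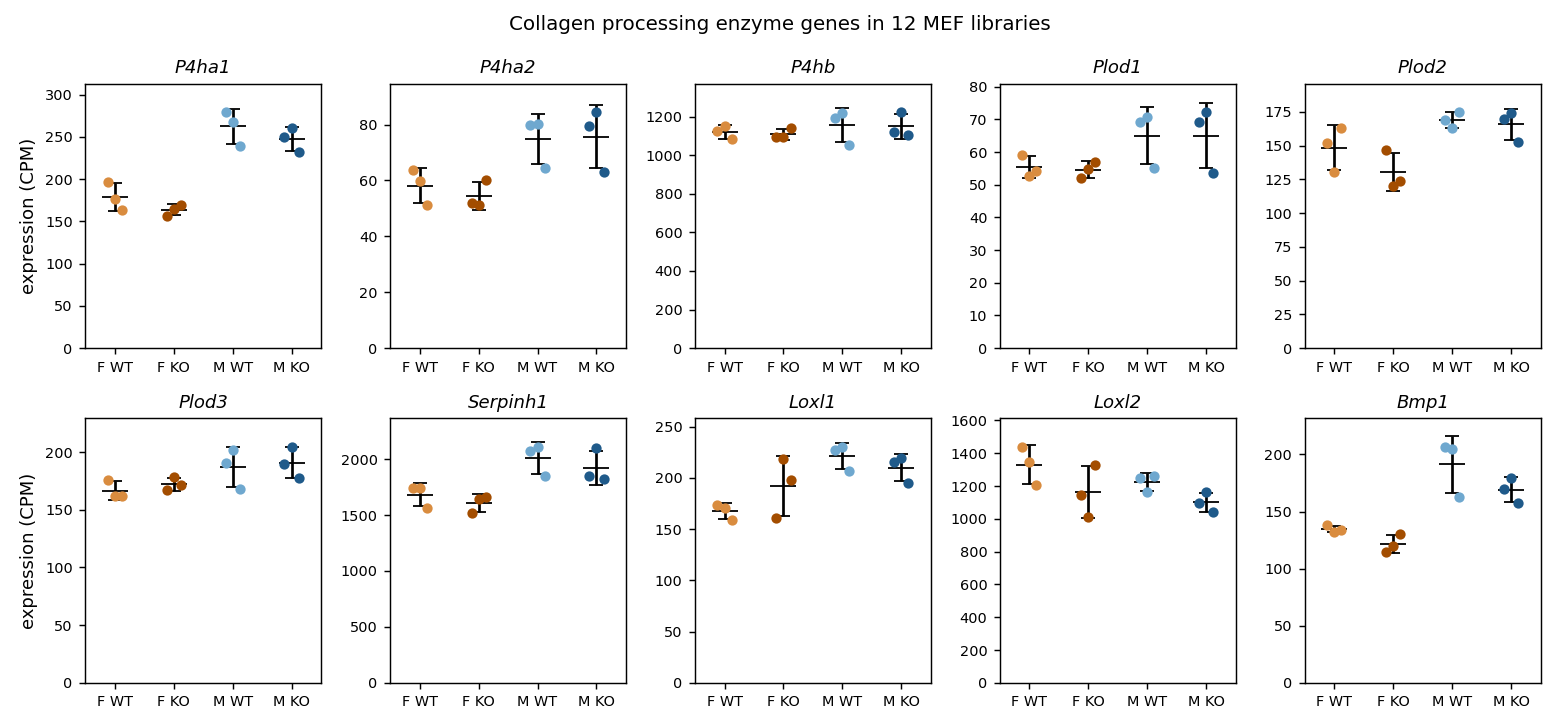
Expression (CPM) of each gene in the 12 libraries, 1 point per library, with the mean as a horizontal bar and the SD as whiskers (n = 3 per group), and every axis starting at 0. *P4ha1*, *Serpinh1* and *Bmp1* are lower in all 6 female than in all 6 male libraries, whereas wild type and KO overlap in all panels but that of *Bmp1* in female cells.

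Of the prolyl 4-hydroxylase genes, *P4ha1* (chromosome 10, 58786044 to 58836052, build mm9) had 196.3, 176.0 and 164.0 CPM in female wild type and 156.8, 164.4 and 169.8 CPM in the female KO libraries. In male libraries it had 279.5, 268.1 and 239.5 CPM in wild type and 250.2, 260.7 and 232.1 CPM in KO. KO overlapped wild type in each sex, and the male values lay above all female values. The log2 fold change in KO was -0.13 (95% interval -0.29 to 0.04) in female and -0.08 (-0.25 to 0.08) in male libraries. Leaving out 1 library moved it to between -0.186 and -0.055 in female and between -0.145 and -0.035 in male libraries. *P4ha2* (chromosome 11, 53913597 to 53945167) had 63.6, 59.69 and 51.21 CPM in female wild type, 52.09, 51.16 and 60.14 in female KO, 79.78, 80.32 and 64.62 in male wild type and 79.45, 84.53 and 63.14 in male KO. Its lowest male values came from the replicate 3 libraries, and its KO changes were -0.09 (-0.37 to 0.18) and 0.02 (-0.25 to 0.29). *P4hb* (chromosome 11, 120421612 to 120434567) varied least, from 1054 to 1224 CPM over all 12 libraries, a highest-to-lowest ratio of 1.16. Its KO changes were -0.01 in each sex, with intervals of -0.14 to 0.11 and -0.13 to 0.12.

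Of the lysyl hydroxylase genes, *Plod2* (chromosome 9, 92437061 to 92503266) had 152.1, 130.6 and 163.1 CPM in female wild type, 146.7, 120.3 and 124.2 in female KO, 169.3, 162.8 and 175.0 in male wild type and 169.7, 174.6 and 153.0 in male KO. The female KO libraries included the lowest value, but both genotypes overlapped, and the change was -0.19 (-0.39 to 0.01) in female and -0.03 (-0.23 to 0.17) in male libraries. Its female value ranged from -0.28 to -0.12 with 1 library left out. *Plod1* (chromosome 4, 147283862 to 147310876), which hydroxylates lysines of the triple helix, ranged from 51.93 to 72.25 CPM and changed by -0.02 (-0.27 to 0.24) and -0.00 (-0.26 to 0.25). *Plod3* (chromosome 5, 137462889 to 137472518) ranged from 161.5 to 204.6 CPM and changed by 0.05 (-0.11 to 0.20) and 0.03 (-0.13 to 0.18). The annotation places *Znhit1* on the opposite strand of *Plod3*, and the counts are not stated to use strand, so reads from their overlap cannot be told apart.

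The chaperone gene *Serpinh1* (chromosome 7, 106493885 to 106501740) had 1742, 1739 and 1567 CPM in female wild type and 1515, 1647 and 1663 CPM in female KO libraries. Male wild type had 2071, 2111 and 1851 CPM and male KO 1849, 2096 and 1824 CPM. The genotypes overlapped in each sex and the sexes did not. The KO change was -0.06 in female and in male libraries, and the interval was -0.22 to 0.09 in each. It ranged from -0.114 to -0.024 in female and from -0.131 to -0.028 in male libraries with 1 library left out.

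The procollagen protease gene *Bmp1* (chromosome 14, 70874364 to 70920067) was the only member without overlap of KO and wild type, in female libraries alone. It had 138.1, 132.5 and 134.1 CPM in female wild type and 114.7, 120.0 and 130.6 CPM in female KO libraries, so each KO library was below each wild-type library. In male libraries, wild type had 206.8, 204.7 and 162.5 CPM and KO 169.7, 179.5 and 157.7 CPM, and these overlapped through replicate 3 of wild type. No other member was free of overlap between the genotypes in either sex. Of all tested genes, 8.20% were lower and 10.9% higher without overlap in female KO libraries, so the members' count of 1 of 10 is near the background. In male KO libraries these shares were 2.52% and 2.78%. The changes of *Bmp1* were -0.15 (-0.34 to 0.04) and -0.18 (-0.37 to 0.01). Leaving out 1 library moved them to between -0.20 and -0.11 in female and between -0.28 and -0.12 in male libraries. Within the same-numbered pairs of male libraries, *Bmp1*, *P4ha1*, *Serpinh1* and *Loxl1* were lower in KO in 3 of 3 pairs, as were 11.6% of all tested genes, and 0 members were higher in 3 of 3, as were 11.9%. With these pairs as a block in the male line, edgeR's adjusted p was 1 for each of the 4, and the change of *Bmp1* was -0.17 ± 0.06 (SE).

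*Loxl2* (chromosome 14, 70008978 to 70095640), a crosslinking enzyme of the extracellular matrix, had 1440, 1348 and 1206 CPM in female wild type and 1147, 1013 and 1330 in female KO. Male wild type had 1247, 1161 and 1261 CPM and male KO 1098, 1161 and 1042 CPM, so the means were lower in KO in each sex but the ranges overlapped or touched. Its changes were -0.19 (-0.40 to 0.01) and -0.15 (-0.36 to 0.05). They ranged from -0.30 to -0.10 in female and from -0.19 to -0.11 in male libraries with 1 library left out. The lincRNA gene *Gm16867* lies on the opposite strand of *Loxl2*, and the same limit on strand applies. *Loxl1* (chromosome 9, 58135530 to 58161019), a lysyl oxidase best known for its part in elastic fibres, was the only member to go up in female KO and down in male KO by the fitted values. It had 174.0, 170.6 and 159.0 CPM in female wild type, 161.0, 218.6 and 198.0 in female KO, 227.3, 230.5 and 206.6 in male wild type and 215.5, 219.7 and 194.7 in male KO. The fitted changes were 0.20 (-0.01 to 0.41) and -0.08 (-0.29 to 0.13), and neither passed the test. The female change of *Loxl1* was 0.10 without KO replicate 2 and 0.31 without KO replicate 1, and the male change was -0.12 without wild-type replicate 3, -0.05 without wild-type replicate 2 and -0.03 without KO replicate 3.

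Averaged over the sexes, *Bmp1* was at -0.16 ± 0.06 (SE, unadjusted p = 0.0215) and *Loxl2* at -0.17 ± 0.06 (unadjusted p = 0.0223) in edgeR's quasi-likelihood test. These 2 were the only members below an unadjusted p of 0.05, as were 6.24% of all tested genes, and their adjusted p was 0.769 and 0.772. After adjustment 0 members and 0.0195% of all genes passed, and DESeq2 called 0 members. For the difference between the sexes in the KO effect, 0 members and 0.00% of all genes passed after adjustment. At an unadjusted p below 0.05 that difference gave 0 members and 3.19% of genes, and DESeq2 called 0 members. *Loxl1* came nearest, with a difference of 0.28 on the log2 scale (female minus male, 95% interval -0.02 to 0.57, unadjusted p = 0.0663, adjusted p = 1). This difference of *Loxl1* was 0.17 without female KO replicate 2 and 0.39 without female KO replicate 1. *Col1a1* itself was at -0.07 (-0.43 to 0.29) in female and -0.05 (-0.41 to 0.32) in male KO.

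**Figure D3:**
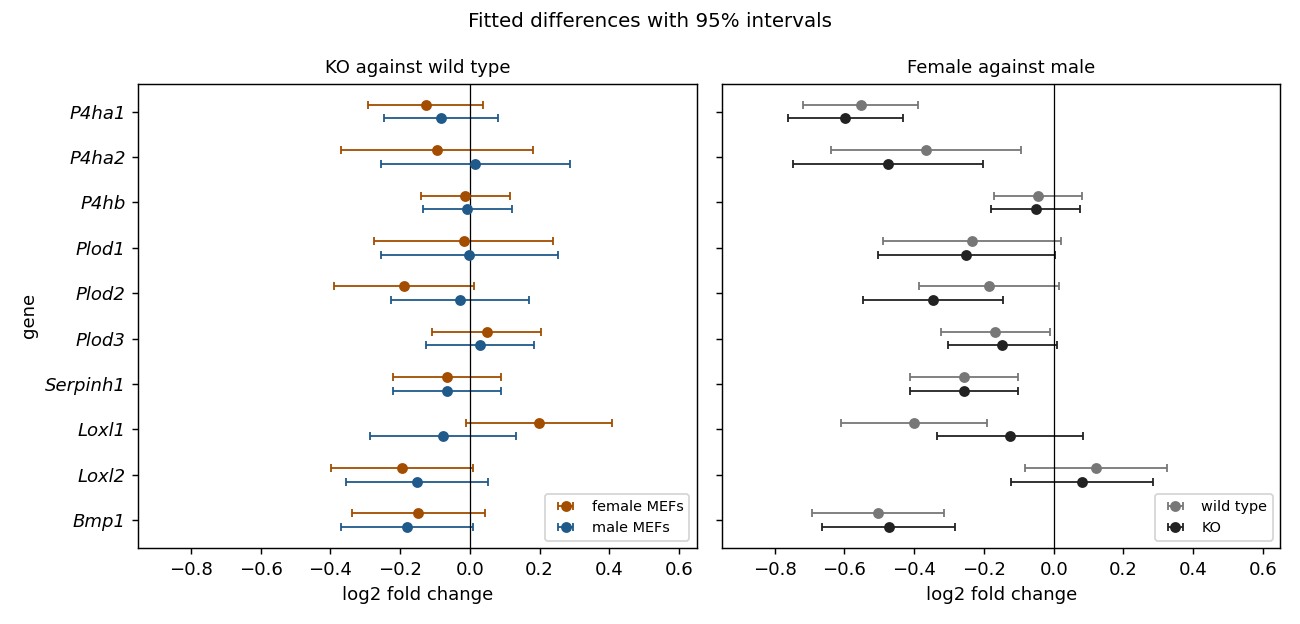
Fitted log2 fold changes with 95% intervals for KO against wild type within each sex (left) and for female against male libraries within each genotype (right). All KO intervals cross 0, and the intervals of *P4ha1*, *P4ha2*, *Serpinh1* and *Bmp1* lie below 0 in both comparisons of female with male.

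The larger differences among these genes lay between the female and the male libraries. In wild type 5 of 10 members were lower in female cells after adjustment and 0 were higher, and the same counts were found in KO. Of all tested genes, 19.8% were lower and 18.9% higher in female wild type, and 19.7% and 18.9% in female KO, which is 38.7% in either direction in each genotype. At an unadjusted p below 0.05 there were 6 members in wild type and 5 in KO, against 47.8% and 47.9% of genes. The 5 members in wild type were *P4ha1*, *P4ha2*, *Serpinh1*, *Loxl1* and *Bmp1*, and those in KO were *P4ha1*, *P4ha2*, *Plod2*, *Serpinh1* and *Bmp1*, so 4 were called in both. The median log2 fold change of the members (female minus male) was -0.25 in each genotype, against -0.01 and -0.00 for all tested genes. None of the 10 exceeded the limits used in the study, an adjusted p below 0.01 with a log2 fold change beyond 1, which 4.54% of genes passed in wild type and 3.89% in KO. Markers of several cell types moved with this comparison. Macrophage markers were called higher in female wild type for 9 of 10 and in female KO for 10 of 10 genes, epithelial markers for 7 and 2 of 7, skeletal muscle markers for 7 and 8 of 10, neural markers for 5 and 7 of 8 and endothelial markers for 3 and 1 of 6. Fibroblast markers were called lower for 4 of 12 in each genotype and higher for 0 and 1, with medians of -0.51 and -0.39 on the log2 scale, and cartilage and bone markers were called lower for 2 of 7 in each. Their part in the result was not tested.

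*P4ha1* showed the largest difference of the members, with a log2 fold change of -0.55 ± 0.08 (SE) in wild type (adjusted p = 0.000305, edgeR) and -0.60 ± 0.08 in KO (adjusted p = 0.000196), which corresponds to levels 1.47 and 1.51 times higher in male cells. *Bmp1* was at -0.50 ± 0.09 (adjusted p = 0.00118) and -0.47 ± 0.09 (adjusted p = 0.00174) in the same test. These 2 genes passed whichever library was left out. *P4ha2* was at -0.37 ± 0.12 (adjusted p = 0.0367) in wild type and -0.48 ± 0.12 (adjusted p = 0.0113) in KO. In wild type its call was lost without female replicate 2 (adjusted p = 0.0728), female replicate 3 (0.138), male replicate 1 (0.114) or male replicate 2 (0.11). *Serpinh1* was at -0.26 ± 0.07 in both genotypes (adjusted p = 0.0146 and 0.0142), and all 6 female libraries were below all 6 male libraries. Its call in wild type was lost without female replicate 3 (adjusted p = 0.0613), male replicate 1 (0.0505) or male replicate 2 (0.0533), and in KO without female replicate 1 (0.0598) or male replicate 2 (0.0608). *P4ha1*, *Serpinh1* and *Bmp1* were the 3 members with no overlap between 6 female and 6 male libraries, as were 16.9% of all tested genes in that direction. Within a genotype, the 3 female libraries were below the 3 male libraries without overlap for 5 members in wild type and 5 in KO. Of all tested genes 26.4% and 25.7% were lower in this way and 25.5% and 24.5% higher.

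*Loxl1* passed in wild type (-0.40 ± 0.10, adjusted p = 0.00737) and *Plod2* in KO (-0.35 ± 0.09, adjusted p = 0.0117), both in edgeR's test over all genes. A call in 1 genotype does not show a difference between genotypes: the sex-by-genotype term of *Plod2* was -0.16 (95% interval -0.44 to 0.12), and neither it nor that of *Loxl1* passed. The term of *Plod2* ranged from -0.25 to -0.09 with 1 library left out. *P4hb* was at -0.05 (95% interval -0.17 to 0.08) in wild type and -0.05 (-0.18 to 0.08) in KO, and *Loxl2*, the single member above 0, at 0.12 (-0.08 to 0.33) and 0.08. *Plod1* and *Plod3* were at -0.23 and -0.17 in wild type and did not pass with all libraries. Their male replicate 3 values were low, 54.99 and 53.56 CPM for *Plod1* and 167.9 and 177.8 CPM for *Plod3* in wild type and KO. Without the pair of male replicate 3 libraries, *Plod1* was at -0.34 in wild type (adjusted p = 0.000974) and -0.37 in KO (0.000642), and *Plod3* at -0.24 (0.00509) and -0.20 (0.0135), all with edgeR. This exclusion was chosen after seeing the data and leaves only male replicates 1 and 2 in each genotype, so these calls are a description. With single libraries left out, between 3 and 7 members passed in wild type and between 4 and 6 in KO. There were 7 without male wild-type replicate 3, and 3 without female wild-type replicate 3, male wild-type replicate 1 or male wild-type replicate 2.

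Within each line, most members had a positive correlation with *Col1a1* across libraries on the log2(CPM + 1) scale, but no gene passed adjustment. *Col1a1* had 3365, 2886 and 2272 CPM in female wild type, 2147, 2893 and 3074 in female KO, 3770, 3440 and 2788 in male wild type and 3024, 3606 and 3042 in male KO. Over the 6 female libraries the median Pearson's r of the members with *Col1a1* was 0.63, with 9 of 10 above 0, against a median of 0.01 for all tested genes. Over the 6 male libraries it was 0.78, with 10 of 10 above 0, against 0.02. The median Spearman's rho was 0.60 and 0.66. In an exact permutation test of the 720 orders, two-sided, 2 members in each line had an unadjusted p below 0.05, as did 5.52% of all genes in female and 9.58% in male libraries. The smallest p that 6 libraries allow is 0.00278 for Spearman's rho without ties, and 1 in 720 for Pearson's r. After adjustment over the 15382 and 15383 genes with a correlation, 0 genes passed, and the smallest adjusted p of a member was 0.791 in female and 0.489 in male libraries.

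**Figure D4:**
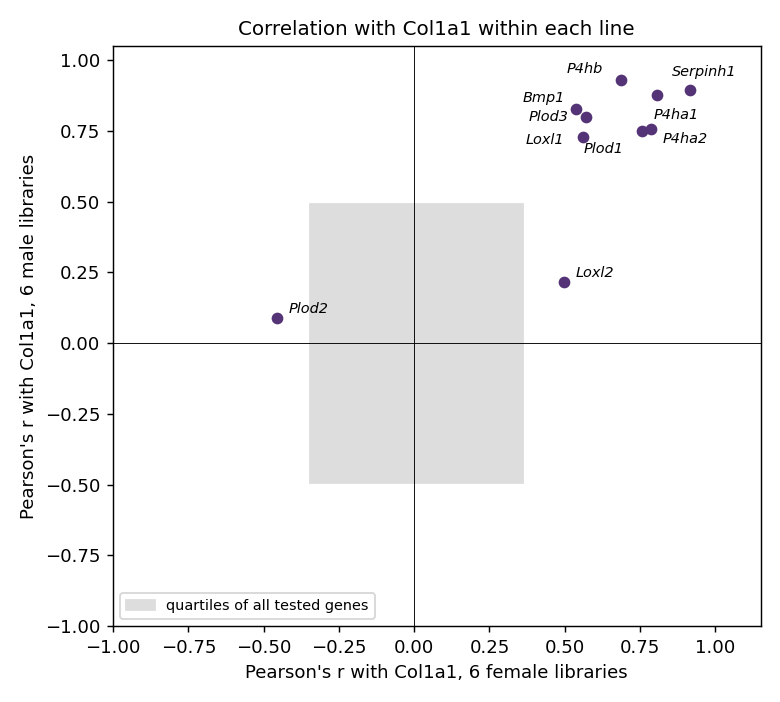
Pearson's r of each gene with *Col1a1* over 6 female libraries (horizontal) and 6 male libraries (vertical), with the box giving the quartiles of all tested genes. Of the 10 genes, 8 lie above the upper quartile in both lines, and *Plod2* and *Loxl2* do not, although the male r of *Loxl2* is 0.92 over the 4 libraries without replicate 3.

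*Serpinh1* had an r of 0.92 in female (rho 0.83, exact permutation p = 0.0194, adjusted 0.791) and 0.89 in male libraries (rho 0.54, exact permutation p = 0.0944, adjusted 0.559). *P4ha1* had 0.81 (rho 0.83, exact permutation p = 0.0333, adjusted 0.877) and 0.88 (rho 0.77, exact permutation p = 0.025, adjusted 0.489). *P4hb*, which did not differ detectably between the lines, had 0.69 and 0.93. *Plod2* had -0.45 in female and 0.09 in male libraries, the lowest of the members in each line, and *Loxl2* had 0.50 and 0.22. After removal of the 2 libraries farthest from the median of *Col1a1*, the median r was 0.68 in female and 0.74 in male libraries. Single genes moved more: in female libraries *Serpinh1* went to 0.42, *P4hb* to 0.13 and *Loxl1* from 0.56 to -0.39, so that these values rest on those 2 libraries, female wild type replicate 3 and female KO replicate 1, and *Plod2* went to 0.84. Removing the libraries farthest in *Col1a1* also narrows its range, and r then rests on 4 libraries. With the genotype means removed, the medians were 0.74 and 0.80.

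The male values draw in part on the replicate 3 libraries. Without them, over 4 libraries and as a description only, r was 0.87 for *P4ha1*, 0.86 for *Serpinh1* and 0.81 for *P4hb*. The r of *P4ha2* was then 0.38, that of *Plod1* 0.38 and that of *Plod3* 0.34. That of *Loxl2* went the other way, from 0.22 over 6 libraries to 0.92, and it was 0.88 without the 2 libraries farthest in *Col1a1*. *Plod2* was at 0.14, *Loxl1* at 0.62 and *Bmp1* at 0.71 without the replicate 3 pair. Over all 6 libraries of a line, among the 45 pairs of members, the median r was 0.36 in female libraries, with 35 pairs above 0, and 0.77 in male libraries, with 44 above 0. These points share libraries and depth, so they are a description. The male value includes the replicate 3 libraries, where *P4ha2*, *Plod1* and *Plod3* were low. No value for pairs of all tested genes was computed beside it.

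The 5 tested genes outside the list whose profile was most like that of *Serpinh1*, by the lower of the r values over 6 female and 6 male libraries, included *Col1a1* with 0.92 and 0.89. *Rcn3*, which encodes a calcium-binding protein of the endoplasmic reticulum, had 0.99 and 0.91. *Aldh18a1*, whose product makes the proline precursor pyrroline-5-carboxylate, had 0.90 and 0.90. The others were *Acbd4* (0.92 and 0.92), which ranked highest by this measure, and *Zdhhc18* (0.89 and 0.93). Picking the highest of 15387 tested genes over 6 libraries per line favours high r, so these values are a description.

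Other genes of collagen biosynthesis and uptake gave the context. The counts below stand against 19.8% of all tested genes lower and 18.9% higher in female wild type, and 19.7% and 18.9% in female KO. The 28 tested partner genes encode other hydroxylases, propeptide and crosslinking enzymes, prolyl isomerases, glycosyltransferases, secretion factors and a collagen uptake receptor. Of these, 11 were lower and 1 higher in female than in male wild type, and 11 and 1 in KO. *Loxl3*, a further lysyl oxidase gene, was at -2.01 ± 0.13 (SE) in wild type and -1.71 ± 0.13 in KO. *P4ha3*, the third catalytic subunit of prolyl 4-hydroxylase, was at -0.68 ± 0.12 in wild type, and *Mrc2*, an endocytic collagen receptor, at -0.73 ± 0.09. *Leprel1*, a prolyl 3-hydroxylase gene, was the 1 that was higher in female cells, at 0.94 ± 0.14. Of 12 collagen chain genes, 4 were lower and 2 higher in female wild type and 5 and 2 in female KO. *Col6a3* was at -1.69 ± 0.37, *Col5a1* at -0.75 ± 0.16 and *Col1a2* at -0.62 ± 0.19 in wild type, whereas the basement membrane chains *Col4a1* and *Col4a2* were at 0.37 ± 0.08 and 0.28 ± 0.08. *Col1a1* was at -0.23 (95% interval -0.60 to 0.13) and did not pass, and it was at -0.37 without female wild-type replicate 1, -0.09 without female wild-type replicate 3 and -0.13 without male wild-type replicate 1.

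Of 15 tested genes of the response to low oxygen, a list to which *P4ha1*, *P4ha2* and *Plod2* are functionally tied as known targets, 6 were lower and 2 higher in female cells in each genotype, against 38.7% of all tested genes called in either direction. *Vegfa* was at -1.12 ± 0.12, *Bnip3* at -1.18 ± 0.14 and *Slc2a1* at -0.54 ± 0.09 in wild type, and *Adm* at 0.82 ± 0.06. The median of that list was -0.15 in wild type and 0.03 in KO, with genes called in each direction. Of 10 chaperone and disulfide isomerase genes of the endoplasmic reticulum, 5 were lower in female wild type and 6 in female KO, and 0 were higher. *Hsp90b1* was at -0.29 ± 0.04 and *Hspa5* at -0.20 ± 0.05 in wild type. In *Firre* KO against wild type, 0 genes of these 4 lists passed in either sex or averaged over the sexes with edgeR, and 0 with DESeq2. At an unadjusted p below 0.05 there were between 0 and 2 genes of each list in each of these comparisons. Among all genes, the 2 that passed in female and the 1 that passed in male libraries included *Firre* itself.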

How the data were processed

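RNA-seq libraries of 12 MEF samples were analysed, and the Hi-C files of the series were not used here. The authors mapped reads with Bowtie2, quantified genes with RSEM 1.2.29 on mm9 and deposited the expected counts unscaled, of which 14.7% to 16.8% per library were not whole. For 6 members all counts were whole, and for 4 the fractional part was at most 0.0138% of the count. Counts were rounded, genes were filtered with filterByExpr, and 15387 genes were fitted in edgeR 4.0.16 (TMM scaling, quasi-likelihood test, R 4.3.3), with all 4 groups sharing 1 estimate of spread (8 residual degrees of freedom, biological coefficient of variation 0.114). The threshold was an adjusted p of 0.05, over all tested genes. DESeq2 1.42.0 with a mean dispersion fit, the fit named in the study's methods, was run as an alternative on the same groups at the same threshold. CPM values are TMM-scaled except in the marker sums, which use library totals alone, and fold changes are not shrunken. Correlations used log2(CPM + 1) and NumPy 2.4.6. The edgeR fit and the correlation were tested on simulated data.

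Sample groups came from the labels. Replicate numbers paired the samples in the male line, where deviations of same-numbered wild-type and KO libraries correlated at 0.237, 0.413 and 0.495, and not in the female line (-0.258, -0.132 and -0.183). The pairing rests on this check and not on a label. It is clear only for replicate 3: unlike-numbered male libraries of replicates 1 and 2 correlated at 0.221 and 0.163, and those of replicate 3 with the others at -0.483 to -0.288. The members and gene lists were chosen with earlier results of these data known. All 10 members are named. From each pathway list, up to 6 genes with the smallest p in female against male wild type were eligible for naming, plus any called in KO, and the 5 tested genes most like *Serpinh1* were chosen by the lower of both within-line r. Gene coordinates are of mm9 and promoter sequences of GRCm38.p6. With 3 libraries per group, the spread between libraries and not the count depth limits precision.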

Additional observations from a re-analysis of the deposited data

How the results depend on the processing

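No alternative gave a member a call in KO against wild type: over 280 member values within the lines under the alternatives, 0 passed and the smallest adjusted p was 0.322 by edgeR or DESeq2. With the replicate number as a block, the members called stayed at 0 in the KO comparisons and at 5 in each comparison of female with male. In the male line, same-numbered libraries were treated as pairs, although the pairing is clear only for replicate 3. The block on that line alone, chosen after seeing the data, gave 0 members and 2 genes in all, against 1. Averaged over the sexes it gave 10 genes against 3. The block over all groups gave 1 averaged over the sexes. The numbers of all genes called in the KO comparisons were small and moved with the tool. DESeq2 called 35 against 2 in female, 6 against 1 in male, 33 against 3 averaged and 4 against 0 for the difference between the sexes. With at least 10 counts in every library the counts were 1 in female, 0 in male and 0 averaged, in fits of the 6 libraries compared 4 and 2, with no filter 5 averaged, without the male replicate 3 pair 5 averaged and 1 for the difference, and under the limits of the study 1 in female and 1 averaged. With 1 library left out they were 1 to 7 averaged and 0 to 1 for the difference. Under the limits of the study, the members called in female against male fell to 0 in each genotype, and 698 and 599 genes passed in all, against 5953 and 5949. KO changes near 0 in male libraries turned sign: *P4hb* 0.003 and *Plod1* 0.007 with library size alone, *Plod1* 0.001 with no filter and 0.001 in a fit of the 6 male libraries, and *Plod1* 0.009 and *Plod2* 0.048 without the replicate 3 pair, chosen after seeing the data. With single libraries left out, female KO changes ranged from -0.037 to 0.006 for *P4hb*, -0.054 to 0.032 for *Plod1* and -0.209 to 0.070 for *Col1a1*. Male KO changes ranged from -0.080 to 0.130 for *P4ha2*, -0.068 to 0.033 for *P4hb*, -0.108 to 0.119 for *Plod1*, -0.067 to 0.026 for *Plod2*, -0.043 to 0.089 for *Plod3* and -0.161 to 0.050 for *Col1a1*, and *Loxl2* in female against male KO from -0.028 to 0.170. The median correlation with *Col1a1* was 0.464 with library size alone and 0.736 on residuals in female libraries, and 0.603 to 0.792 with 1 library left out. In male libraries it was 0.657 by Spearman's rho, 0.663 without the replicate 3 pair, and 0.744 to 0.870 with 1 left out. The members called in female against male ranged from 3 to 7 in wild type and from 4 to 6 in KO with 1 library left out. The cause of these changes was not tested.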
